A study of Mus musculus with 10 samples.

Results

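The genes described here encode the machinery that brings proteins into mitochondria and folds them there. The list held 37 genes, and the array's annotation gave 33 of them a row that names a single gene symbol, of 30142 genes with such a row in the whole series. Dnajc19, Timm10b, Tomm5 and Tomm6 shared their rows with another symbol and were not analysed here. A gene with several rows was represented by its brightest row over the 10 arrays, and its other row is given beside it. Expression had been measured in 4T1, an established line of mouse mammary carcinoma cells, on Affymetrix mouse transcriptome arrays after 5 days in collagen gels. The HD group (5 arrays) grew in gels of 3.5 mg collagen per mL and the LD group (5 arrays) in gels of 2 mg per mL. Both groups started from 50000 cells and shared the medium, RPMI with 10% serum. The labels name no treatment beside the gel, and do not say whether the samples of a group were separate cultures, so each p-value rests on a spread between samples that may be only technical.

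Nearly all mitochondrial proteins are made in the cytosol from nuclear genes. They enter through the TOM complex of the outer membrane, after which separate routes lead to the outer membrane (SAM complex), the intermembrane space (small TIM chaperones and a disulfide relay), the inner membrane (TIM22 complex) and the matrix (TIM23 complex and an import motor driven by mitochondrial Hsp70). In the matrix a peptidase removes the targeting sequence, chaperonins fold the protein, and proteases clear what fails to fold. Tumour cells that respire and grow draw on this machinery to supply new respiratory and metabolic enzymes.

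Import and folding genes were higher in HD. At a threshold of 0.05 on the adjusted p, 29 of the 33 genes were higher and none was lower (limma with Benjamini-Hochberg adjustment over 17800 genes), and their log2 changes (HD minus LD) had a median of 0.34. Over all genes tested, 50.9% were called, 31.4% as higher and 19.5% as lower, and the median was 0.055. At an unadjusted p under 0.05, 1 of the 33 genes was lower, Timm44, and the 4 that passed no adjusted test were Timm17b, Timm21, Lonp1 and Timm44. The 5 HD values lay wholly above the 5 LD values for 26 of the 33 genes, against 21.6% of all genes, and wholly below for none, against 15.1%. The changes were small in size: Timm8a1 was the single gene to rise by at least 1.5-fold, a size that 0.775% of all genes reached in that direction and 1.56% in the other. All 33 genes passed the floor on dim rows, a mean log2 signal of 5.24, the lowest mean among them being 6.90. That floor lay below the median of the array's negative control rows, 5.42 in HD and 5.67 in LD. Among the 10907 genes above a stricter floor, log2 6.96, 62.7% were called and 38.5% were higher. There 27 of the 31 import and folding genes tested were higher and 1, Timm44, was lower. In bulk samples such as these, more cells of a kind and more RNA per cell cannot be told apart.

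**Figure D1:**
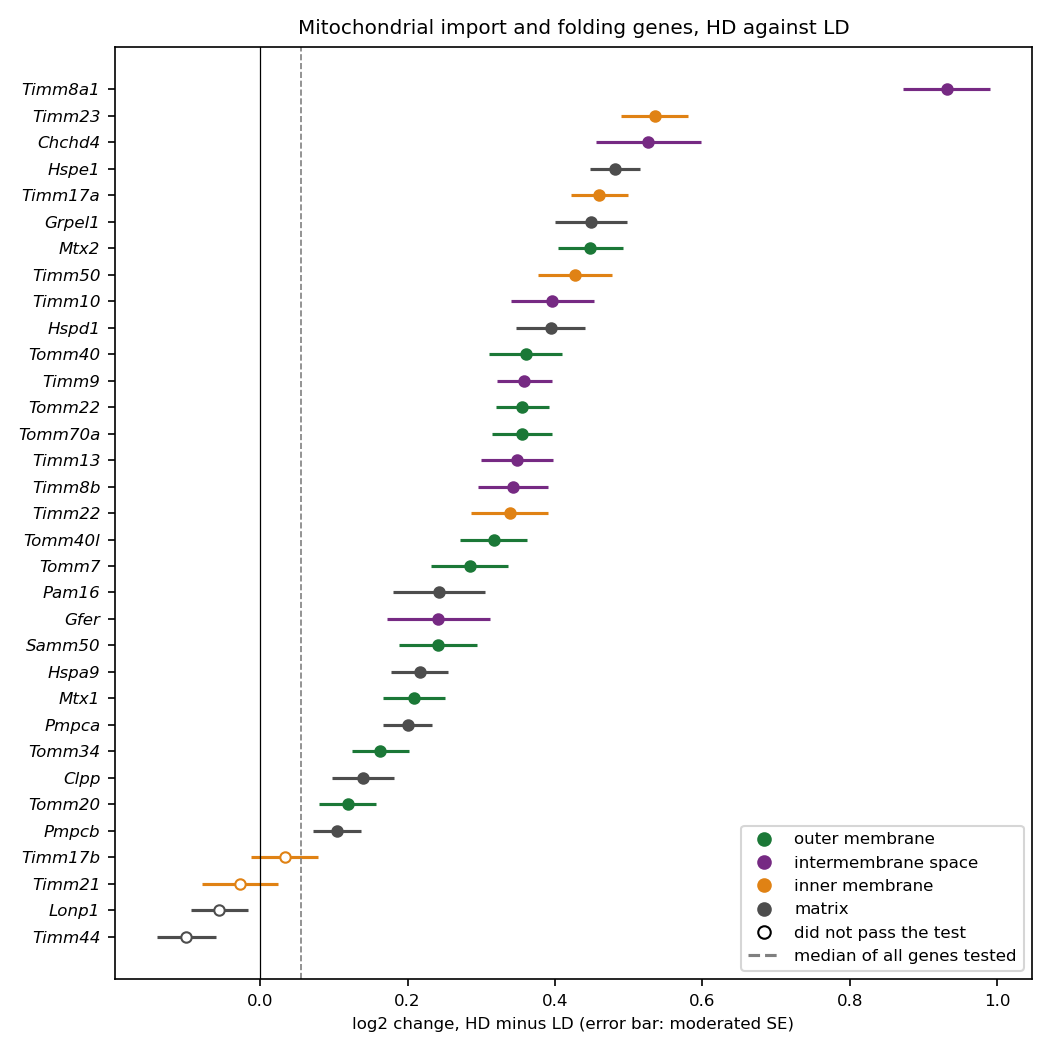
Log2 change, HD minus LD, of the 33 genes on the horizontal axis with the moderated SE as error bar, coloured by the compartment each gene was listed under. Open points did not pass the test and the dashed line marks the median of all genes tested, 0.055. Timm8a1 stands at 0.93, the next 28 genes run down to 0.10, and Timm17b, Timm21, Lonp1 and Timm44 lie between 0.03 and -0.10.

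Promoters are shown for the genes with the 3 largest changes, for the neighbouring chaperonin genes, and for Timm44, whose change was the lowest, so that the letters near the start sites can be read beside the values that follow. The windows run from 250 bases before to 50 bases after the annotated start (RefSeq, GRCm38.p6), and 29 of the 33 genes had at least 1 window. All but the chaperonin promoters were chosen after the values were seen. The brighter rows of Timm8a1 and Timm23, which gave their changes, carry identifiers on chromosome 10, away from the windows printed here. Their dimmer rows, with identifiers on the chromosomes of these windows, rose by 0.75 and 0.49. Each window was searched on both strands for the core motif of NRF1, a regulator of mitochondrial genes, CACGTG (the E-box bound by MYC and MAX), GAANNTTC (a unit pair of the heat shock element) and CCGGAAG (a core bound by ETS factors such as GABP). Capitals mark the matches, which may overlap. The Hspe1 window lies on the plus strand at chr1:55087898-55088197. The Hspd1 window (chr1:55088194-55088493), the Timm8a1 window (chrX:134541621-134541920), the Timm23 window (chr14:32201842-32202141), the Chchd4 window (chr6:91473374-91473673) and the Timm44 window (chr8:4275856-4276155) lie on the minus strand and are written 5′ to 3′ along the gene.
Hspe1: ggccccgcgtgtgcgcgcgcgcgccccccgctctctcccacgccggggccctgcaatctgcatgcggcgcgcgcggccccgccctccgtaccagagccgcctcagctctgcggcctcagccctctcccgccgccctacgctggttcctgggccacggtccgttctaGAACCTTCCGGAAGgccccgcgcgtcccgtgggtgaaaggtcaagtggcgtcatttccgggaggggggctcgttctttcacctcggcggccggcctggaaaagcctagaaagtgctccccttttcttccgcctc
Hspd1: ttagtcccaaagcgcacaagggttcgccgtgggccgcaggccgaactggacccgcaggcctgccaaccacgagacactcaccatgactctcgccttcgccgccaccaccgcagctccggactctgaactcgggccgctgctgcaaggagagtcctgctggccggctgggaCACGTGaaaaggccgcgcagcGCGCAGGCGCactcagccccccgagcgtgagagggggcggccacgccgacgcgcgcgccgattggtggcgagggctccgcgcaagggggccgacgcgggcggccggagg
Timm8a1: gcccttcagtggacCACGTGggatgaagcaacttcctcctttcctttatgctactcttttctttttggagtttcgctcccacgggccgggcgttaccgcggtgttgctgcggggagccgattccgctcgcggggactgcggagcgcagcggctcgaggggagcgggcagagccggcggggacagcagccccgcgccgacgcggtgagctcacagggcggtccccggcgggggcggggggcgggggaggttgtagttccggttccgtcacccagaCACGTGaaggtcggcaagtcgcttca
Timm23: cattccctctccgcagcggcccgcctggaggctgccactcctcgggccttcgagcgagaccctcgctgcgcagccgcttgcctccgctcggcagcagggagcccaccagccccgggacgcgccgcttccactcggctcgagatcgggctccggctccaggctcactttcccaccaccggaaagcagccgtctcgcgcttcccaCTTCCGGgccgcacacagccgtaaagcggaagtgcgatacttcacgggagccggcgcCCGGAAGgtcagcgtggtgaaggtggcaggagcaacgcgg
Chchd4: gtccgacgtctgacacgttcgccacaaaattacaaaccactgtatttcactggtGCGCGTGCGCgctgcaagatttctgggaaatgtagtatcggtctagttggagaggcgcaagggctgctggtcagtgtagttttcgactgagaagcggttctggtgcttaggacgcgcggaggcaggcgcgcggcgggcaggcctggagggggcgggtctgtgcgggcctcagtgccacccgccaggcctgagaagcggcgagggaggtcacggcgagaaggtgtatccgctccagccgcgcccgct
Timm44: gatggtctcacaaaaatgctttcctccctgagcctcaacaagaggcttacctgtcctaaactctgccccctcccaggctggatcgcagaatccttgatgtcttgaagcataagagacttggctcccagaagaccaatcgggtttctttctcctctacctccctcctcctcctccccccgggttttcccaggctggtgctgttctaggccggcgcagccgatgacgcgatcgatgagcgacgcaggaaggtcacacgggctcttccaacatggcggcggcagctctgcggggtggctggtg

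Hspd1 and Hspe1 are neighbours on opposite strands of chromosome 1. Hspd1 has 2 annotated starts. The window of one, 216 bases from the start of Hspe1, shares 285 of 300 bases with the Hspe1 window and is not printed again. In the shared bases a heat shock unit pair overlaps 2 ETS cores, from 84 bases before the start of Hspe1. The window of the other start, printed as Hspd1, shares 4 bases with the Hspe1 window. It held 1 E-box and 1 NRF1 core, 80 and 59 bases before that start, and neither of the other motifs. The Timm8a1 window held 2 E-boxes, the first of them 236 bases before the start, and the Timm23 window held 2 ETS cores, the first of them 47 bases before the start. The Chchd4 window held 1 NRF1 core, 196 bases before the start. None of the 4 motifs matched the Timm44 window. Lonp1, which did not pass the test either, held 1 E-box. Some genes called higher also had a window without any of the 4 motifs. Whether matches go with the changes was not tested. Over the 29 genes with a window, the ETS core was found in 14 (48.3%), the E-box in 6 (20.7%), the NRF1 core in 5 (17.2%) and the heat shock unit pair in 3 (10.3%). The ETS and heat shock counts each take in both Hspe1 and Hspd1 through the same shared bases. The shares over all 27025 genes with windows, not limited to genes tested here, were 9.93%, 8.09%, 5.19% and 9.04% in the same order. Over all 32851 windows they were 8.86%, 7.15%, 4.60% and 7.86%. A match is a stretch of letters, not a measured binding site.

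All 10 analysed genes listed under the outer membrane, Tomm34 among them, rose, against 31.4% of all genes tested. Their median log2 change was 0.30. Tomm40, which forms the entry pore, had log2 signals of 9.83, 9.96, 9.87, 9.77 and 9.72 in the HD arrays, against 9.39, 9.42, 9.49, 9.48 and 9.58 in the LD arrays. All HD values lay above all LD values, and the gene rose 1.28-fold (log2 change 0.36 ± 0.050 SE, limma adjusted p = 4.4e-05). Its paralog Tomm40l rose by 0.32, and the changes of the pair differed by 0.04 ± 0.041 SE, which did not pass (exact permutation p = 0.32, adjusted p = 0.35). The receptors Tomm22 and Tomm70a rose by 0.36 and 0.36, each without overlap between the groups; under a scaling on control rows the rise of Tomm22 was 0.18 (adjusted p = 0.0011). The third receptor, Tomm20, rose by 0.12 (limma adjusted p = 2.1e-02), with groups that overlapped. That call was lost after quantile normalization (0.08, adjusted p = 0.063), under the control-row scaling (-0.017, adjusted p = 0.74), without HD replicate 5 (adjusted p = 0.053) and without LD replicate 4 (adjusted p = 0.054). The small subunit Tomm7 rose by 0.28, and Tomm34, a largely cytosolic cochaperone of Hsp70 and Hsp90 that binds precursor proteins, by 0.16.

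The SAM complex inserts barrel-shaped proteins such as Tomm40 into the outer membrane, with Samm50 as its core and the metaxins as partners. Mtx2 had log2 signals of 9.46, 9.40, 9.33, 9.31 and 9.44 in the HD arrays, against 8.90, 9.03, 8.90, 8.87 and 9.00 in the LD arrays. The groups did not overlap, and Mtx2 rose 1.36-fold (log2 change 0.45 ± 0.044 SE, limma adjusted p = 2.5e-06). Samm50 rose by 0.24 (limma adjusted p = 1.8e-03). Mtx1 rose by 0.21 on its brighter row, with 8.0, 8.17, 8.01, 7.98 and 7.96 in the HD arrays, against 7.80, 7.81, 7.83, 7.79 and 7.84 in the LD arrays. Its dimmer row read 6.69, 6.94, 6.63, 6.81 and 6.62 in HD, against 6.66, 6.31, 6.66, 6.72 and 6.67 in LD. There the groups overlapped, and the difference of 0.13 did not pass the test when that row stood for the gene (limma adjusted p = 0.17). The change of Mtx1 was lower than that of Mtx2 by 0.24 (difference -0.24 ± 0.054 SE, exact permutation p = 0.0079, adjusted p = 0.013). The difference did not pass on the dimmer row of Mtx1 (-0.31, adjusted p = 0.079) or under the control-row scaling (-0.14, adjusted p = 0.099).

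The small TIM proteins of the intermembrane space carry hydrophobic precursors between the membranes as hexamers, Timm9 with Timm10 and Timm8a1 with Timm13. All 5 rose without overlap between the groups, against 21.6% of all genes with HD wholly above LD, and had a median log2 change of 0.36. The largest change was in Timm8a1, the mouse gene whose human counterpart is mutated in deafness-dystonia syndrome. Its log2 signals were 10.10, 10.10, 9.89, 9.88 and 10.04 in the HD arrays, against 9.00, 9.11, 9.02, 8.99 and 9.23 in the LD arrays. The lowest HD array was thus well above the highest LD array, LD replicate 5, and the gene rose 1.91-fold (log2 change 0.93 ± 0.059 SE, limma adjusted p = 7.0e-08). This row carries an identifier on chromosome 10, whereas RefSeq places the gene on the X chromosome. The dimmer row, with an identifier on the X chromosome, read 8.94, 8.97, 8.83, 8.75 and 8.83 in HD, against 8.08, 8.12, 8.08, 8.11 and 8.21 in LD. It rose by 0.75 ± 0.046 SE, also without overlap (limma adjusted p = 5.9e-08 over all 18044 single-gene rows above the floor).

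The other 4 small TIM genes changed by similar amounts. Timm10 had log2 signals of 7.04, 7.31, 7.07, 7.0 and 7.08 in the HD arrays, against 6.61, 6.74, 6.80, 6.68 and 6.68 in the LD arrays. HD replicate 2 stood above the rest, and the gene rose 1.32-fold (log2 change 0.40 ± 0.056 SE, limma adjusted p = 5.5e-05). Timm9 had log2 signals of 7.81, 7.73, 7.79, 7.78 and 7.77 in the HD arrays, against 7.47, 7.34, 7.37, 7.41 and 7.48 in the LD arrays. Its HD values spanned a narrow range above all LD values, and it rose 1.28-fold (log2 change 0.36 ± 0.038 SE, limma adjusted p = 4.3e-06). The hexamer partners Timm9 and Timm10 differed in change by -0.04 ± 0.087 SE, which did not pass (exact permutation p = 0.7, adjusted p = 0.7). Timm13 and Timm8b rose by 0.35 and 0.34. The change of Timm8a1 exceeded that of its hexamer partner Timm13 by 0.58 ± 0.091 SE and that of its paralog Timm8b by 0.59 ± 0.047 SE (exact permutation p = 0.0079, adjusted p = 0.013 for each, over 10 pairs; 0.0079 is the smallest p that 5 against 5 arrays allow). With the X-chromosome row these differences were 0.40 and 0.40, adjusted p = 0.013 for each. The pairs compared here and below were chosen after the data were seen, and a difference of this kind on arrays shows unequal change of 2 signals, which probe response can also affect.

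**Figure D2:**
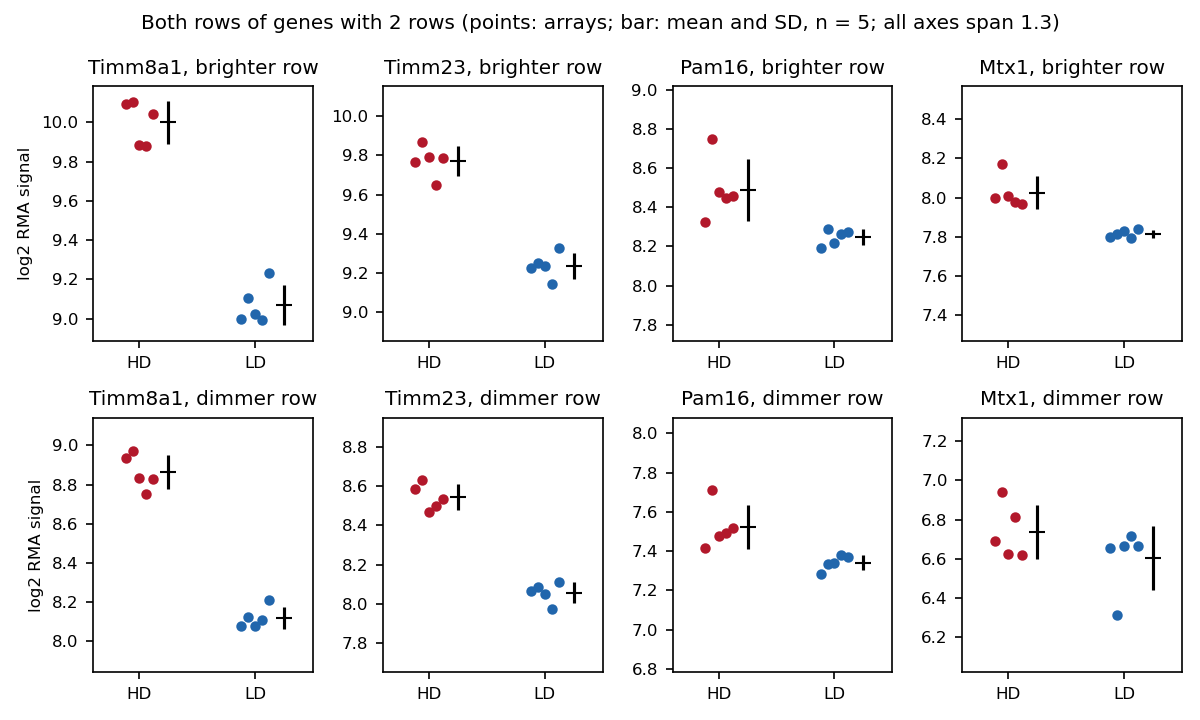
Log2 RMA signal of both rows of the 4 genes with 2 rows, HD left of LD; points are arrays, bars give mean and SD (n = 5), and every vertical axis spans 1.3. For Timm8a1, Timm23 and Pam16 the HD arrays lie above the LD arrays on both rows, while the dimmer row of Mtx1 overlaps between the groups.

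The disulfide relay traps cysteine-rich proteins, the small TIMs among them, in the intermembrane space. Its receptor and oxidase Chchd4 (Mia40) had log2 signals of 7.53, 7.43, 7.36, 7.11 and 7.31 in the HD arrays, against 6.66, 6.79, 6.92, 6.82 and 6.92 in the LD arrays. The groups did not overlap, although HD replicate 4 and LD replicates 3 and 5 came near each other, and Chchd4 rose 1.44-fold (log2 change 0.53 ± 0.071 SE, limma adjusted p = 3.8e-05). Gfer, the oxidase that recharges Chchd4, rose by 0.24 (limma adjusted p = 1.1e-02) with overlapping groups. The change of Chchd4 exceeded that of Gfer by 0.28 ± 0.100 SE (exact permutation p = 0.024, adjusted p = 0.034). That difference did not pass without HD replicate 1, 3 or 5 or without LD replicate 1, 2, 4 or 5 (0.22 to 0.30, adjusted p of 0.057 to 0.068).

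In the inner membrane the TIM23 complex, which passes proteins to the matrix, was split. Timm23, the channel subunit, had log2 signals of 9.76, 9.87, 9.79, 9.65 and 9.78 in the HD arrays, against 9.22, 9.25, 9.23, 9.14 and 9.33 in the LD arrays. All HD values exceeded all LD values, and it rose 1.45-fold (log2 change 0.54 ± 0.046 SE, limma adjusted p = 7.6e-07). This row too carries an identifier on chromosome 10, and RefSeq places the gene on chromosome 14. The row with an identifier on chromosome 14 read 8.59, 8.63, 8.47, 8.50 and 8.53 in HD, against 8.06, 8.09, 8.05, 7.97 and 8.11 in LD, a rise of 0.49. Timm50, the receptor that hands precursors to the channel, had log2 signals of 8.48, 8.72, 8.51, 8.53 and 8.42 in the HD arrays, against 8.06, 8.07, 8.13, 8.12 and 8.14 in the LD arrays. HD replicate 2 was the highest, no array overlapped the other group, and Timm50 rose 1.34-fold (log2 change 0.43 ± 0.050 SE, limma adjusted p = 1.1e-05).

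The 2 paralogs of the Timm17 subunit behaved differently. Timm17a had log2 signals of 10.16, 10.15, 10.11, 10.08 and 10.22 in the HD arrays, against 9.63, 9.72, 9.70, 9.62 and 9.75 in the LD arrays, without overlap, and rose 1.38-fold (log2 change 0.46 ± 0.039 SE, limma adjusted p = 6.7e-07). Timm17b had 8.57, 8.73, 8.62, 8.58 and 8.46 in the HD arrays, against 8.54, 8.52, 8.56, 8.55 and 8.62 in the LD arrays. Its groups overlapped and the difference of 0.03 did not pass (limma adjusted p = 5.6e-01). The change of Timm17a exceeded that of Timm17b by 0.43 ± 0.061 SE (exact permutation p = 0.0079, adjusted p = 0.013), and by 0.32 to 0.46 under the alternatives run for the pairs. Timm21, which in yeast and human cells links TIM23 to the outer membrane complex and to respiratory chain assembly, had 7.88, 7.80, 7.71, 7.69 and 7.87 in the HD arrays, against 7.78, 7.93, 7.81, 7.69 and 7.88 in the LD arrays. The groups overlapped fully, at a difference of -0.03 (limma adjusted p = 6.9e-01), and its sign turned after quantile normalization (0.03), under the control-row scaling (0.03) and without LD replicate 2 (4e-04). Timm22, the channel that inserts metabolite carriers, rose by 0.34 without overlap.

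**Figure D3:**
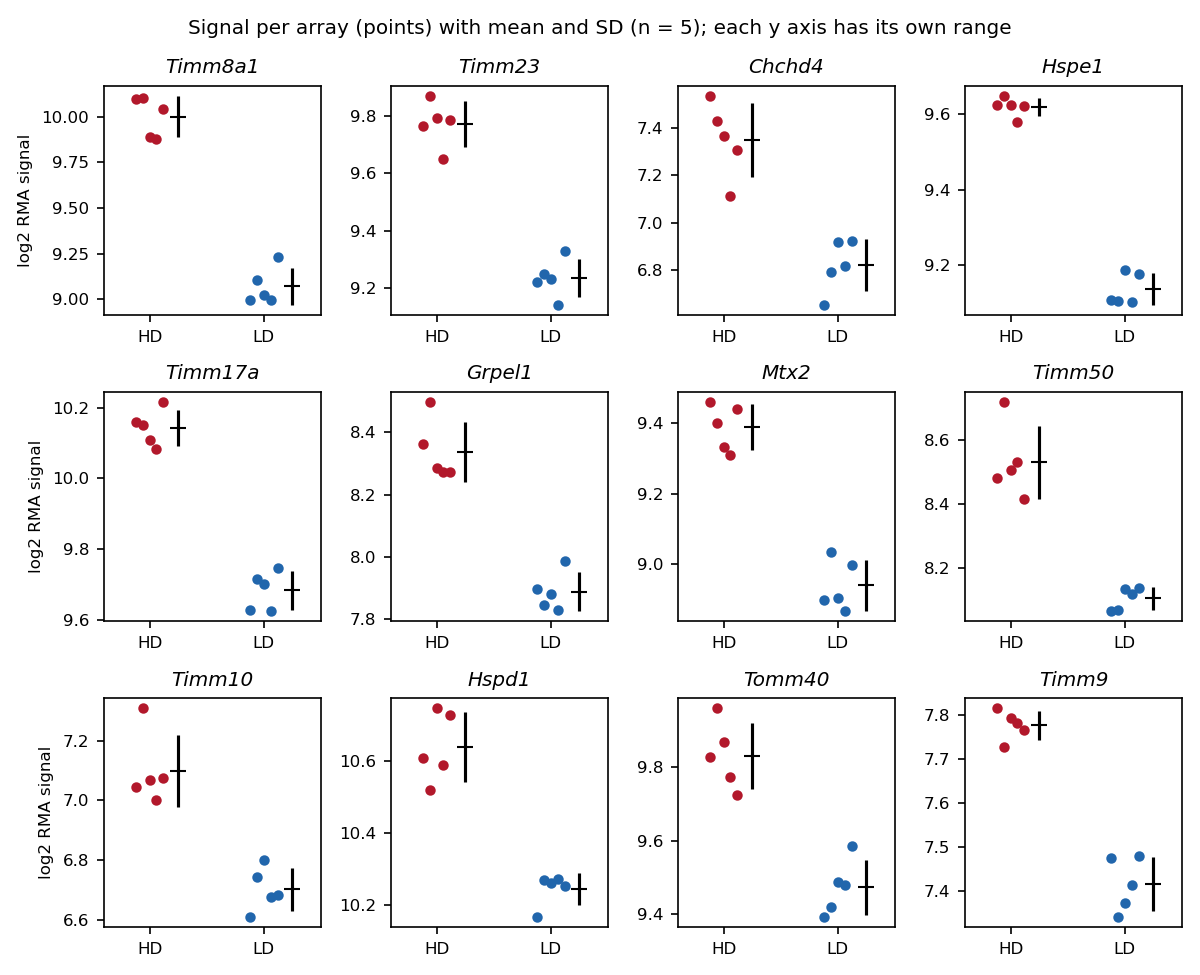
Log2 RMA signal per array of the 12 genes with the largest changes, HD left of LD; points are arrays, bars give mean and SD (n = 5), and each panel has its own vertical range. In all 12 panels the HD arrays lie above the LD arrays.

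The import motor pulls proteins into the matrix by cycles of Hspa9, the mitochondrial Hsp70. Grpel1, the exchange factor that releases nucleotide from Hspa9, had log2 signals of 8.36, 8.50, 8.29, 8.27 and 8.27 in the HD arrays, against 7.90, 7.85, 7.88, 7.83 and 7.99 in the LD arrays. The groups did not overlap, and Grpel1 rose 1.36-fold (log2 change 0.45 ± 0.049 SE, limma adjusted p = 5.8e-06). Hspa9 itself rose by 0.22 (limma adjusted p = 3.9e-04), with 10.92, 10.82, 10.96, 10.87 and 10.98 in the HD arrays, against 10.66, 10.74, 10.69, 10.65 and 10.73 in the LD arrays. That call was lost under the control-row scaling (0.020, adjusted p = 0.75). By its construction this scaling lowers bright signals and raises dim ones in HD relative to LD. The dimmer gene Timm10, for instance, rose by 0.53 under it. Pam16, which in yeast restrains the J-protein of the motor, rose by 0.24 on its brighter row, with 8.32, 8.75, 8.48, 8.45 and 8.46 in the HD arrays, against 8.19, 8.29, 8.22, 8.26 and 8.27 in the LD arrays. HD replicate 2 was far above the other HD arrays, and this row carries an identifier on chromosome 10. On the row with an identifier on chromosome 16, where RefSeq places the gene, the values were 7.42, 7.71, 7.47, 7.49 and 7.52 in HD, against 7.28, 7.33, 7.34, 7.38 and 7.37 in LD, a rise of 0.18.

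Timm44 tethers Hspa9 to the TIM23 channel, and it had the lowest change of the 33 genes. Its log2 signals were 9.01, 9.02, 8.89, 8.87 and 8.93 in the HD arrays, against 9.07, 9.10, 9.00, 9.00 and 9.04 in the LD arrays. The groups overlapped, and the difference of -0.10 ± 0.040 SE lay just outside the threshold (limma adjusted p = 5.1e-02). It passed the test as lower under 8 of the 25 alternative settings run, quantile normalization (-0.12, adjusted p = 0.010) and the control-row scaling (-0.14, adjusted p = 0.0054) among them. Under median centring of the arrays it did not pass (-0.078, adjusted p = 0.18). Its sign was negative under all 25, but several of these, such as other rows of other genes or another variance model, cannot alter its estimate.

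In the matrix, the chaperonin genes rose together. Hspe1, the Hsp10 lid of the folding chamber, had log2 signals of 9.62, 9.65, 9.62, 9.58 and 9.62 in the HD arrays, against 9.11, 9.11, 9.19, 9.10 and 9.18 in the LD arrays. Its HD values lay close together and well above the LD values, and it rose 1.40-fold (log2 change 0.48 ± 0.034 SE, limma adjusted p = 1.5e-07). Hspd1, the Hsp60 chamber itself, had log2 signals of 10.61, 10.52, 10.75, 10.59 and 10.73 in the HD arrays, against 10.17, 10.27, 10.26, 10.27 and 10.25 in the LD arrays. LD replicate 1 was lower than the other LD arrays, the groups did not overlap, and Hspd1 rose 1.31-fold (log2 change 0.39 ± 0.046 SE, limma adjusted p = 1.1e-05; 0.23 under the control-row scaling, adjusted p = 0.0046). The changes of the pair differed by -0.09 ± 0.051 SE, Hspd1 being lower, which did not pass (exact permutation p = 0.12, adjusted p = 0.15) except under the control-row scaling (-0.18, adjusted p = 0.013).

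The subunits of the peptidase that removes targeting sequences rose less, Pmpca by 0.20 (0.12 under the control-row scaling, adjusted p = 0.012) and Pmpcb by 0.10, each without overlap. Pmpca changed more than Pmpcb by 0.10 ± 0.022 SE (exact permutation p = 0.0079, adjusted p = 0.013), a difference that did not pass after quantile normalization (0.061, adjusted p = 0.079) or the control-row scaling (0.030, adjusted p = 0.16). Of the matrix proteases, Clpp, the chamber of the ClpXP protease, rose by 0.14 (limma adjusted p = 1.3e-02) with overlapping groups. Lonp1, which degrades oxidised matrix proteins, had 8.42, 8.47, 8.52, 8.43 and 8.34 in the HD arrays, against 8.49, 8.48, 8.45, 8.52 and 8.52 in the LD arrays. Its groups overlapped and the difference of -0.06 did not pass (limma adjusted p = 2.4e-01). The changes of Lonp1 and Clpp differed by -0.19 ± 0.025 SE, Lonp1 being lower (exact permutation p = 0.0079, adjusted p = 0.013). By the compartment they were listed under, 10 of 10 outer membrane and 7 of 7 intermembrane space genes rose. So did 4 of 6 inner membrane and 8 of 10 matrix genes, against 31.4% of all genes tested. In the same order the compartments had median log2 changes of 0.30, 0.36, 0.38 and 0.21, against 0.055 over all genes. No test was made between the compartments.

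The 33 genes were not equally high in all arrays of a group. The median deviation of the 33 genes from their own means was 0.145, 0.25, 0.16, 0.083 and 0.092 in HD replicates 1 to 5, against -0.19, -0.14, -0.16, -0.17 and -0.10 in LD replicates 1 to 5. Over all genes tested the same medians were 0.011 to 0.027 in HD, against -0.034 to -0.012 in LD. HD replicate 2 held the highest of the 10 values for 20 of the 33 genes and LD replicate 4 the lowest for 14. These counts were not made over all genes tested, so they cannot be read as particular to the 33 genes. Without HD replicate 2 the median change was 0.30, with 29 genes higher, and without LD replicate 4 it was 0.32, with 28 higher.

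**Figure D4:**
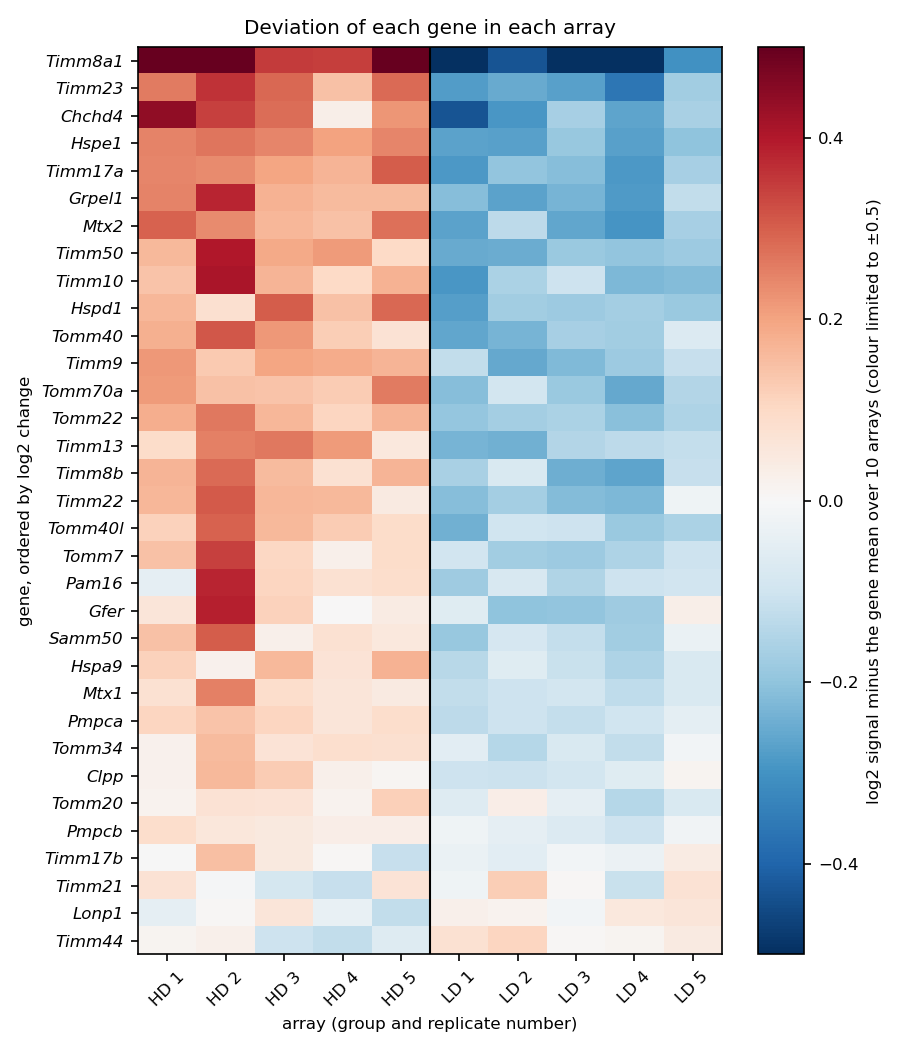
Log2 signal minus the gene's mean over the 10 arrays, coloured with limits of ±0.5, for the 33 genes (from top to bottom by change) in the 5 HD arrays, left, and the 5 LD arrays, right. HD columns are red and LD columns blue for most genes, HD replicate 2 is the reddest column for 20 genes, and the 4 bottom rows show no such split.

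Other features of the arrays moved with the groups. The array's negative control rows had a median of 5.42 ± 0.124 (SD, n = 5) in HD and 5.67 ± 0.052 in LD. Its positive control rows had a median of 9.28 ± 0.045 in HD and 9.21 ± 0.011 in LD (exact permutation p = 0.0079 for each). The background rows moved opposite to the negative control rows, at 3.63 ± 0.057 in HD and 3.47 ± 0.055 in LD (exact permutation p = 0.0079). When each array was scaled linearly so that the negative and positive control medians matched, 27 of the 33 genes were higher and 1, Timm44, was lower, with a median of 0.26. The same scaling moved the median of all genes to 0.13 and the share called higher to 49.3%. After quantile normalization 28 were higher and 1, Timm44, lower, with medians of 0.31 for the 33 genes and 0.090 for all genes, of which 42.9% were higher. All 6 epithelial markers listed lay above the floor, Epcam, Krt18 and Cdh1 fell by 0.60, 0.13 and 0.11, and Krt14, Krt8 and Cldn7 did not pass the test, at 0.11, 0.03 and 0.02. Of 13 rows for markers of fibroblasts, leukocytes and endothelium, 9 lay below the floor. The 4 above it were Col1a1 (6.80 in HD and 6.71 in LD), Thy1 (5.65 and 5.54), Cd3e (5.45 and 5.29) and Cd79a (5.44 and 5.34). In LD, Thy1, Cd3e and Cd79a lay below the negative control median of 5.67, and in HD above that of 5.42. The dimmest of the 13, the leukocyte marker Ptprc, read 3.14 in HD and 3.09 in LD, under the median of the background rows (3.63 in HD and 3.47 in LD). The mean log2 signal of the 13 rows was 4.61 to 4.73 in HD, against 4.53 to 4.64 in LD, and 2 of them, Thy1 and Cd3e, rose, by 0.12 and 0.16. Their part in the results above was not tested.

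**Figure D5:**
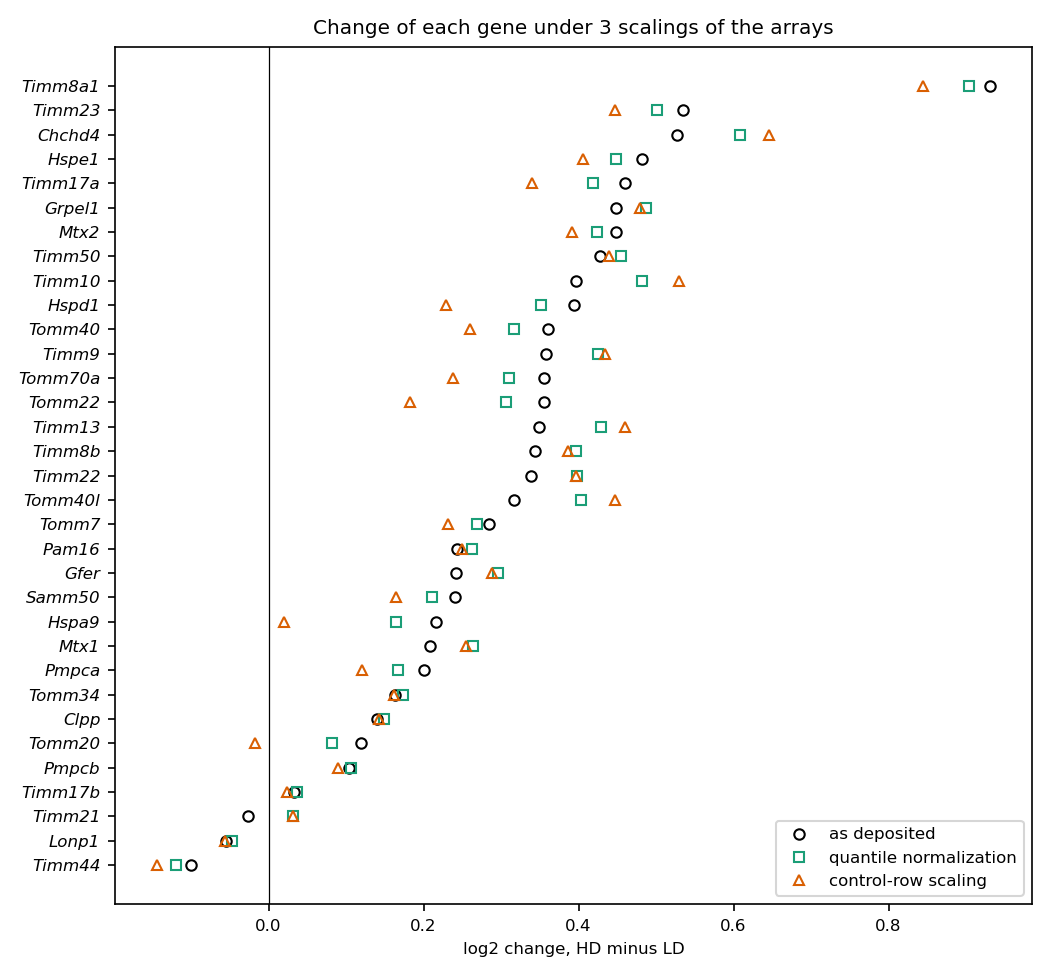
Log2 change, HD minus LD, of the 33 genes as deposited (circles), after quantile normalization (squares) and after the control-row scaling (triangles). The changes of Hspa9 and Tomm20 come down to 0.020 and -0.017 under the control-row scaling, while Timm8a1 stays at 0.84 or above under all 3.

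Further genes of mitochondrial upkeep were counted from lists beyond the 33, to be read against the 31.4% of all genes that were higher, the 19.5% that were lower and the median of 0.055. Of 18 tested genes of import, insertion and processing, 11 were higher and 2 lower, and the median log2 change was 0.16. Letm1, an inner membrane ion exchanger, had a mean log2 signal of 8.34 ± 0.044 (SD, n = 5) in HD and 7.78 ± 0.067 in LD and rose 1.47-fold (limma adjusted p = 1.8e-07). Dnajc15, a J-protein paralogous to Dnajc19 of the motor, rose by 0.49. Oxa1l, the insertase that places mitochondrially made proteins into the inner membrane, averaged 9.91 ± 0.076 (SD, n = 5) in HD and 10.26 ± 0.060 in LD, and fell 1.28-fold (log2 change -0.36 ± 0.044 SE, limma adjusted p = 1.8e-05). Of 14 other chaperones and proteases, 5 rose and 2 fell (median 0.080), which is close to the shares over all genes. The serine protease-like Lactb rose by 0.45 (0.70 under the control-row scaling, adjusted p = 3.8e-06) and Dnlz, a helper of Hspa9, by 0.34. Hscb, a J-protein of iron-sulfur cluster assembly, fell by 0.25 (-0.16 after quantile normalization), a call lost under the control-row scaling (-0.08, adjusted p = 0.20). The LD signal of Lactb, 5.32, lay below the LD median of the negative control rows.

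Of 5 genes of the cristae-shaping MICOS complex, 4 rose and none fell, at an unadjusted p under 0.05 as well (median 0.19). Apoo rose by 0.51 on a row whose identifier lies on chromosome 13, Chchd6 by 0.22 and Immt by 0.19 (0.10 under the control-row scaling, adjusted p = 0.047). Of 9 regulators of mitochondrial gene expression, 5 rose and none fell by either threshold (median 0.15). Among those that did not pass were Nrf1, at -0.02, and Gabpa, at -0.03 (limma adjusted p = 0.64 for each). Pprc1, a growth-regulated coactivator of the PGC-1 family, rose 1.499-fold (log2 change 0.58 ± 0.045 SE, limma adjusted p = 3.0e-07), Tfb2m, a mitochondrial transcription factor, by 0.32, and the coactivator Ppargc1b by 0.23 (0.42 under the control-row scaling, adjusted p = 8.5e-05). Of 10 genes of fission, fusion and outer membrane channels, 5 rose and none fell by either threshold (median 0.070), with Mfn2 at 0.22, Vdac2 at 0.14 and Mff at 0.13. Vdac2 came to 0.09 after quantile normalization (adjusted p = 0.025) and turned to -0.01 under the control-row scaling (adjusted p = 0.80), and Mff did not pass without HD replicate 5 or LD replicate 4 (adjusted p = 0.051 for each). Together 30 of these 56 genes rose and 4 fell, with a median of 0.13, against 31.4%, 19.5% and 0.055 over all genes.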

How the data were processed

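Total RNA of 10 samples was hybridised to 1-colour Affymetrix arrays, 1 sample each. Per the submitters' processing notes, the authors used RMA, and the deposited table holds its log2 values. Since RMA compresses folds, the folds given are ratios of RMA signals. That the scale is log2 was read from the values; no source used here names the software version, annotation or build. The number of arrays limits the precision.

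Gene names came from the platform annotation, in which 30604 rows named 1 symbol and 2146 several; 33206 transcript rows had none. Symbols of 827 rows were updated through RefSeq gene IDs. The fit of HD against LD used limma 3.58.1 under R 4.3.3 (lmFit, eBayes, two-sided) on 17800 genes above the median of all row means. Pairs of genes were compared by a two-sided exact permutation test of their log2 difference. The members, lists and tests were chosen with earlier results of these data known. All 37 listed genes are named. Values per array are given for the 12 largest changes, genes with 2 rows and others the text turns on. From each further list 3 called genes are named, and from the regulators also Nrf1 and Gabpa, which were not called. Protein sequences were not used here. The fit was run on simulated data as a check of the script. Alternatives were a replicate block, other scalings, filters, rows, variance models and weights, a 1.5-fold threshold, and leaving out each array.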

Additional observations from a re-analysis of the deposited data

Results flagged for a closer look

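Within 96 groups of 5 arrays (33 genes and 15 genes of the further lists, in HD and in LD), 4 held an array whose gap to the others was large against the group's range, by Dixon's criterion of 0.71 for 5 values. Chance flags about 1 in 20 groups. Timm10 read 7.31 in HD replicate 2, with the other HD arrays at 7.0 to 7.08. Mtx1 read 8.17 in HD replicate 2, with the other HD arrays at 7.96 to 8.01. Hspd1 read 10.17 in LD replicate 1, with the other LD arrays at 10.25 to 10.27. Timm22 read 7.76 in LD replicate 5, with the other LD arrays at 7.56 to 7.61. Each of the 4 genes kept a rise past the threshold in each fit that left out 1 array.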

How the results depend on the processing

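The count of import and folding genes called higher was 29, and 27 to 29 over 25 alternative settings. It was 28 to 29 with 1 array left out. The 1.5-fold threshold left 1 higher. The count called lower, 0, became 1 (Timm44) with the replicate block, quantile normalization, the control-row scaling, the stricter filter on dim rows (log2 6.96), trended variances and array weights, and 0 to 1 with 1 array left out. The median change ran from 0.26 under the control-row scaling, the one setting that moved it by more than the 0.053 by which the arrays' own medians spread (pooled SD, n = 5 a group), to 0.36, and from 0.30 to 0.36 with 1 array left out. Of the further genes, 30 were higher and 4 lower; 2 were lower with the stricter filter (49 tested), and 0 and 0 at 1.5-fold. Reversed signs were those of Timm21 (0.0315 after quantile normalization, 0.0312 under the control-row scaling, and -0.0577 to 4e-04 with 1 array left out), Tomm20 (-0.017) and Vdac2 (-0.0136) under the control-row scaling. The differences Tomm40 minus Tomm40l (-0.087 after quantile normalization, -0.19 under the control-row scaling) and Timm9 minus Timm10 (-0.0729 to 0.0265 with 1 array left out) also turned; none of these values passed the test, and the cause was not tested. The replicate block gave 29 higher and 1 lower; same-numbered arrays deviated together with correlations of 0.19, -0.091, -0.036, 0.22 and -0.025, and none correlated best with its own number, so the numbers were taken as names only. The control-row scaling was known from earlier work, and the pair differences and own-chromosome rows (29 higher) were added after seeing the data.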
